A study of Mus musculus with 6 samples.

Results

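A set of 10 genes of glucose breakdown and of the response to low oxygen was followed in cultured mouse breast tumour cells after transfection of a microRNA precursor. They are the hexokinases Hk1 and Hk2, the phosphofructokinase subunit Pfkp, the regulatory enzyme Pfkfb3, the later glycolytic enzymes Aldoa, Pgk1 and Ldha, the pyruvate dehydrogenase kinase Pdk1, the oxygen-sensing hydroxylase Egln3 and the ankyrin repeat gene Ankrd37. Every array probe that carries one of these 10 gene names was taken, whatever its values, which gave 23 probes of the 41174 on the array. Of these, 20 probes were kept after the filter on dim signals, against 23828 of all probes, and each of the 10 genes had at least 1 kept probe, against 16183 kept genes of the 27670 named on the array.

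C4HD is a hormone-dependent ductal mammary tumour of female BALB/c mice that arose under the progestin medroxyprogesterone acetate and is passed on by transplantation into mice given the same progestin. Per the labels, primary cultures of the epithelium-enriched fraction of such tumours received 30 nM of a precursor of miR-16 (pre-miR-16, 3 biological replicates) or 30 nM of a scrambled precursor that yields no known mammalian microRNA (pre-miR-Control, 3 biological replicates), and total RNA was taken after 48 h. The tumour, the progestin exposure of the host and the transfection reagent were shared by both groups, and the series title calls the cells ErbB-2 positive. Each RNA was labelled with Cy3 and read on 1 single-colour Agilent array, so 3 arrays per group limit the precision.

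Glycolysis turns glucose into pyruvate in the cytosol, and tumour cells often run it fast and export the end product as lactate. Hypoxia-inducible factors (HIF) are transcription factors whose alpha subunits are hydroxylated by Egln enzymes when oxygen is present and are then degraded. At low oxygen they accumulate, pair with Arnt and raise many glycolytic genes, Pdk1, Egln3 and Ankrd37 among them, through a short DNA element. MicroRNAs such as miR-16 act on mature transcripts and lower their level or translation by pairing with them, mostly through the seed near the 5′ end of the microRNA.

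The mature sequence encoded by the mouse miR-16 genes is shown because the precursor was the only agent that differed between the groups, with its seed, bases 2 to 8, in capitals. RefSeq places it at chr14:61631936-61631957 on the minus strand (Mir16-1) and at chr3:69009918-69009939 on the plus strand (Mir16-2) of GRCm38.p6.
mmu-miR-16-5p: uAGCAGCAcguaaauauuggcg

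The complement of that seed in transcript letters, TGCTGCT, was searched on the sense strand of the 60-base probes. It was present in 224 of 41174 probes (0.544%) and in 1 of the 23 probes of the 10 genes, an Aldoa probe. A stretch of that probe, bases 10 to 39, and a stretch of the other Aldoa probe, bases 28 to 57, are given to show the match in capitals and its absence. Probes cover a small part of each transcript, so these counts say nothing about the rest of it.
Aldoa A_52_P98387: tcccatcactctTGCTGCTgccctcgtgtg
Aldoa A_51_P216905: tcccatcactcttgctgccctcgtgtgcgg

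The 250 bases before the RefSeq transcription start are given for the 5 genes that were called and for Ldha, which was not called and whose window holds the most matches. Capitals mark the core of the hypoxia response element, searched as ACGTG and as GCGTG on both strands, so a match on the other strand reads CACGT or CACGC. Each sequence runs 5′ to 3′ on the strand of its gene, in GRCm38.p6. The windows are chr6:82774455-82774704 (minus) for Hk2, chr13:6648772-6649021 (minus) for Pfkp, chr12:54203875-54204124 (minus) for Egln3, chr2:71872974-71873223 (plus) for the upstream start of Pdk1, chr8:45999851-46000100 (minus) for Ankrd37 and chr7:46845554-46845803 (plus) for the upstream start of Ldha.
Hk2: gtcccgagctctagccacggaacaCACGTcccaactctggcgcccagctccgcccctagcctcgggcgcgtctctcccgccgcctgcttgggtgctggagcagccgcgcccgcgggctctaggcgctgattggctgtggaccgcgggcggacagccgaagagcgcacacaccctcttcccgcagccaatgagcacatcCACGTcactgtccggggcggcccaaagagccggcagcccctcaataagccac
Pfkp: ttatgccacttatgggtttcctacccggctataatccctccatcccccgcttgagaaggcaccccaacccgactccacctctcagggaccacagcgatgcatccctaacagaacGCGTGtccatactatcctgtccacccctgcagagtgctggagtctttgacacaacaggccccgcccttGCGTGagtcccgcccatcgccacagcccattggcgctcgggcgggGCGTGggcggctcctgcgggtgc
Egln3: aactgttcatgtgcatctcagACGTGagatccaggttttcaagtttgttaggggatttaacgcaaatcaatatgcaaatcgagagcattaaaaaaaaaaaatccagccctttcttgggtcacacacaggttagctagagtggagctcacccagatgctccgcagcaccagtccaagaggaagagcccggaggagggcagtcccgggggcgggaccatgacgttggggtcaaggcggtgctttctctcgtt
Pdk1: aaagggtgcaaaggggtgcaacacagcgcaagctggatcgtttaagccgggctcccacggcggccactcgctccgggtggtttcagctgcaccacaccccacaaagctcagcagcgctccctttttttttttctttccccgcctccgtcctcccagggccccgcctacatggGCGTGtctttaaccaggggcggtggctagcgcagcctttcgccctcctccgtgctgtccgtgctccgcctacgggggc
Ankrd37: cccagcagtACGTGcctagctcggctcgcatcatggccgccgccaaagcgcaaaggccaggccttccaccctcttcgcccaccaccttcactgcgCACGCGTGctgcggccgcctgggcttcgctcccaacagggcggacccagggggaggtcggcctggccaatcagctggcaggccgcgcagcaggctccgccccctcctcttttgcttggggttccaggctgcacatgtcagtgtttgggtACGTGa
Ldha: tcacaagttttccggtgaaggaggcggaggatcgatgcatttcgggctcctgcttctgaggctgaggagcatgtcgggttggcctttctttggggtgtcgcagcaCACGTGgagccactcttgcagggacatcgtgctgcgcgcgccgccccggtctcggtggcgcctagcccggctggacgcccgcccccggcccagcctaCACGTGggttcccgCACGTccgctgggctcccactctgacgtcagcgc

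RefSeq lists 16 starts for the 10 genes, and at least 1 start of each gene had a match, in 13 of the 16 windows, of which 2 Aldoa windows overlap and share their match. Across all 32851 windows of 27025 genes, 38.6% held either core, 16.6% held ACGTG and 28.2% held GCGTG. Counted by window in the same way, ACGTG lay in 9 of the 16 and GCGTG in 6. Counted by gene, ACGTG lay before a start of 7 of the 10 genes and GCGTG before a start of 6. The count by gene is not on the scale of the shares above, since several genes have more than 1 window. The called genes that were higher and those that were lower in pre-miR-16 cultures both carried matches: Hk2 had 2 of ACGTG, Pfkp 3 of GCGTG and Egln3 1 of ACGTG, while Pdk1 had 1 of GCGTG and Ankrd37 had 2 of each. Ldha, not called, had 5 of ACGTG, of which 4 form 2 overlapping pairs that read the same on both strands. A match is a description of these letters and not a bound site, and several of the 10 were picked as known HIF-linked genes.

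**Figure D1:**
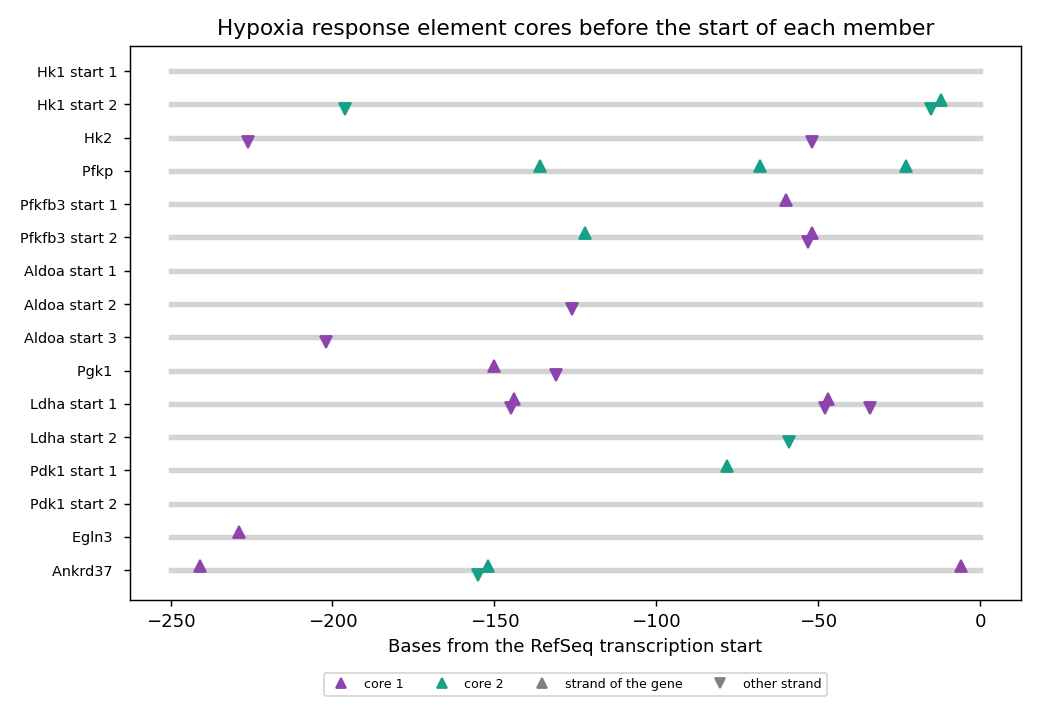
Positions of the 2 core motifs in the 250 bases before each RefSeq start of the 10 genes, with distance from the start in bases on the horizontal axis. Purple marks core 1 (ACGTG), green marks core 2 (GCGTG), upward triangles are on the strand of the gene and downward triangles on the other strand; 13 of the 16 windows hold at least 1 match.

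Levels below are log2 of the processed signal minus the 75th percentile of the same array, so 0 is the signal at that percentile, and differences are pre-miR-16 minus pre-miR-Control on this log2 scale with the standard error of the limma fit. A probe was called where the Benjamini-Hochberg adjusted p over all 23828 kept probes was under 0.05, and a gene by its brightest kept probe. Of the 10 genes, 5 were called: Hk2, Pfkp and Egln3 higher and Pdk1 and Ankrd37 lower in pre-miR-16 cultures. This share, 50% of the genes, stands beside 46.2% of all 16183 genes called, with 16.5% higher and 29.7% lower. Egln3 is counted here although it entered the fit through the pre-miR-16 arrays alone, which favours a higher call. With signal asked for on all 6 arrays, Egln3 was left out and 4 genes were called. The groups did not overlap at 6 of the 10 genes, where 60.3% of all genes did not overlap. At the level of probes, 10 of the 20 kept were called, 6 higher and 4 lower, beside 44.6% of all kept probes, 15.8% higher and 28.8% lower, and 12 of the 20 had no overlap of the groups, beside 58.5%. The median difference was -0.02 over the 10 genes, where that over all genes was -0.17. The number of calls among the 10 is near the background of this comparison, and the values of each gene follow.

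The share of the array that was higher or lower depended on the scale. With the levels set on the 10 spike-in control probes in place of the 75th percentile, every difference moved up by 0.40, and 28.8% of genes were called, 23.7% higher and 5.12% lower. On that scale 5 of the 10 genes were again called, Hk1, Hk2, Pfkp and Egln3 higher and Ankrd37 lower. The 75th percentile of the signal was 591 to 843 units, 57.2% to 64.0% of the spots of an array stood clear of background, and the number saturated was 0. The 6 arrays lay on 3 slides, each with its own scan session, and slides 1 and 2 held both groups while slide 3 held only pre-miR-16 replicate 3, so differences within slides 1 and 2 are given beside the fit.

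**Figure D2:**
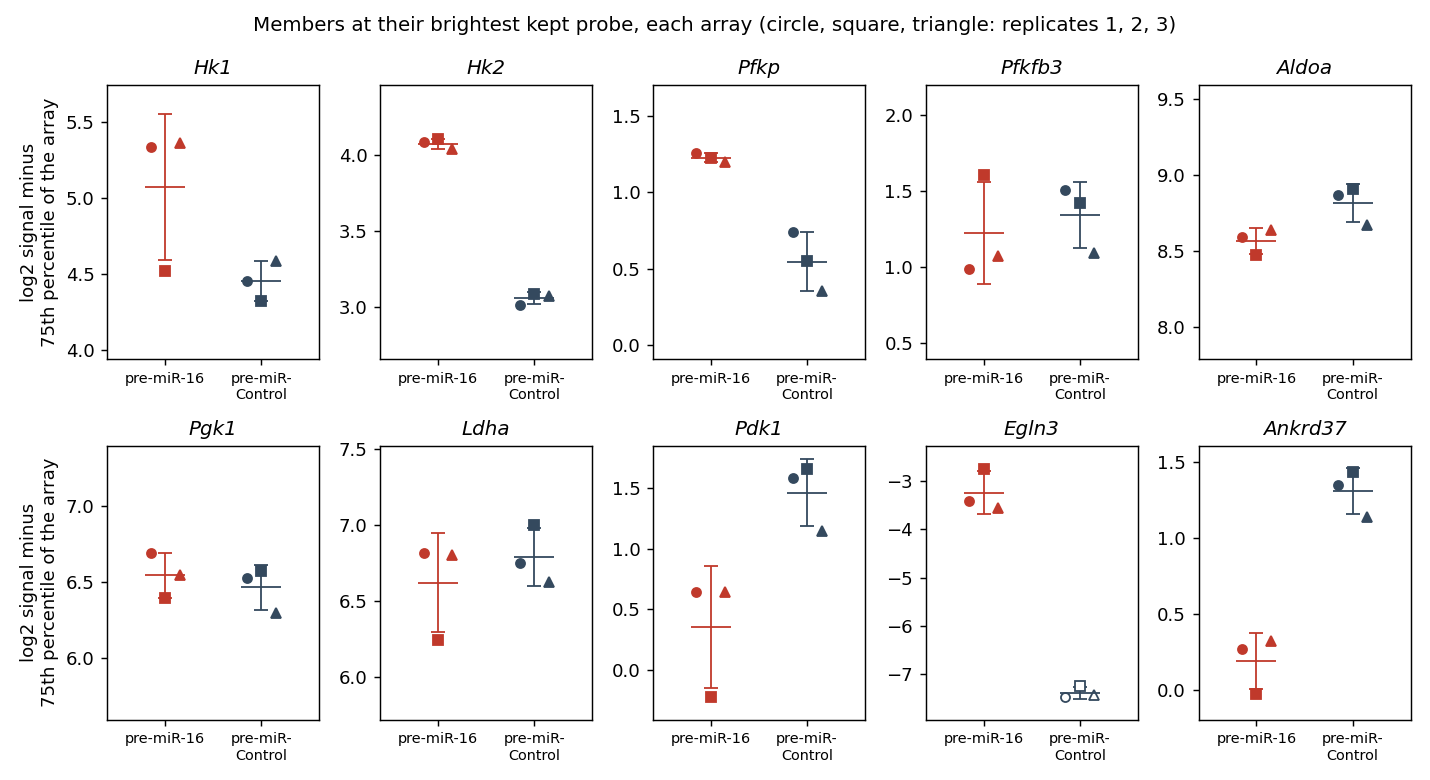
Level of each of the 10 genes at its brightest kept probe on every array, as log2 signal minus the 75th percentile of the array, with pre-miR-16 (red) left of pre-miR-Control (blue); horizontal bars are means and vertical bars the SD of 3 arrays, and open symbols mark signals not well above background. The groups are apart at Hk2, Pfkp, Aldoa, Pdk1, Egln3 and Ankrd37 and overlap at Hk1, Pfkfb3, Pgk1 and Ldha; the vertical axes differ between panels.

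The hexokinases phosphorylate glucose, the step that traps it in the cell, and Hk2 is the isoform that tumours and insulin-sensitive tissues often raise. Hk2 (A_51_P204080, chr6:82750613-82750672 on the minus strand of mm7) measured 4.08, 4.10 and 4.04 in pre-miR-16 replicates 1, 2 and 3, against 3.02, 3.09 and 3.07 in pre-miR-Control replicates 1, 2 and 3. The 3 pre-miR-16 arrays all lay above the 3 pre-miR-Control arrays, with little spread inside either group. The difference was 1.01 ± 0.08 (SE, 3 arrays per group; 95% interval 0.81 to 1.22), a 2.02-fold rise with an adjusted p of 3.10e-04. It was 1.07 within slide 1 and 1.02 within slide 2. In bulk RNA such as this, fewer cells of a type and less RNA per cell cannot be told apart, for this gene and those that follow.

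Hk1, the hexokinase found in most tissues, has 6 probes along chr10 on the minus strand, and they did not all give the same call. Its brightest probe, A_52_P102773 (chr10:61787906-61787965), also lies nearest the 3′ end of the gene. It measured 5.34, 4.52 and 5.36 in pre-miR-16 replicates and 4.46, 4.33 and 4.59 in pre-miR-Control replicates, so that pre-miR-16 replicate 2 fell inside the range of the other group. The difference, 0.62 ± 0.24 (95% interval 0.03 to 1.20), had an adjusted p of 0.0810 and was not called. It was 0.88 within slide 1 and 0.07 within slide 2. Without pre-miR-16 replicate 2 it was 0.89 and passed, with an adjusted p of 0.00223. The interval of the difference includes a rise near that of Hk2, so the test does not show that Hk1 stayed the same.

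The 3 next probes towards the 5′ end of Hk1 passed the test. A_52_P674530 lies 819 bases upstream of the brightest one and measured 1.00, 0.39 and 1.18 in pre-miR-16 cultures, against 0.11, -0.08 and 0.17 in pre-miR-Control cultures. A_51_P249024, at 2461 bases, measured 0.61, 0.02 and 0.81 in pre-miR-16 cultures, against -0.21, -0.63 and -0.35 in pre-miR-Control cultures. A_52_P479599, at 6515 bases, measured -0.82, -1.30 and -0.38 in pre-miR-16 cultures, against -1.69, -1.84 and -1.66 in pre-miR-Control cultures. At all 3 probes every pre-miR-16 array exceeded every pre-miR-Control array, and pre-miR-16 replicate 2 was the lowest of its group. The differences were 0.79 ± 0.21, 0.88 ± 0.23 and 0.90 ± 0.23 in that order of probes, with adjusted p-values of 0.0258, 0.0221 and 0.0219. These calls rest on few arrays: with 1 array left out, A_52_P674530 passed only without pre-miR-16 replicate 2, A_51_P249024 only without that array or without pre-miR-Control replicate 1, and A_52_P479599 only without pre-miR-16 replicate 2 or 3, while the differences kept their sign and ranged from 0.63 to 1.13. With the slide as a fixed block A_52_P674530 lost its call (0.58, adjusted p = 0.0793), and without the filter on dim probes all 3 did.

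The 2 probes farthest towards the 5′ end of Hk1 were dim. A_52_P9337, at 46285 bases, was well above background on 3 pre-miR-16 and 2 pre-miR-Control arrays, and its groups overlapped (difference 0.22 ± 0.28, 95% interval -0.46 to 0.91, adjusted p = 0.549). A_52_P87141, at 89203 bases, did not rise well above background on any of the 6 arrays and has no value here. The files assign the brightest Hk1 probe to the cDNA BC072628 and its other probes to the RefSeq transcript NM_010438. RefSeq gives 2 starts for Hk1, and the files do not say which start the transcript of each probe uses.

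**Figure D3:**
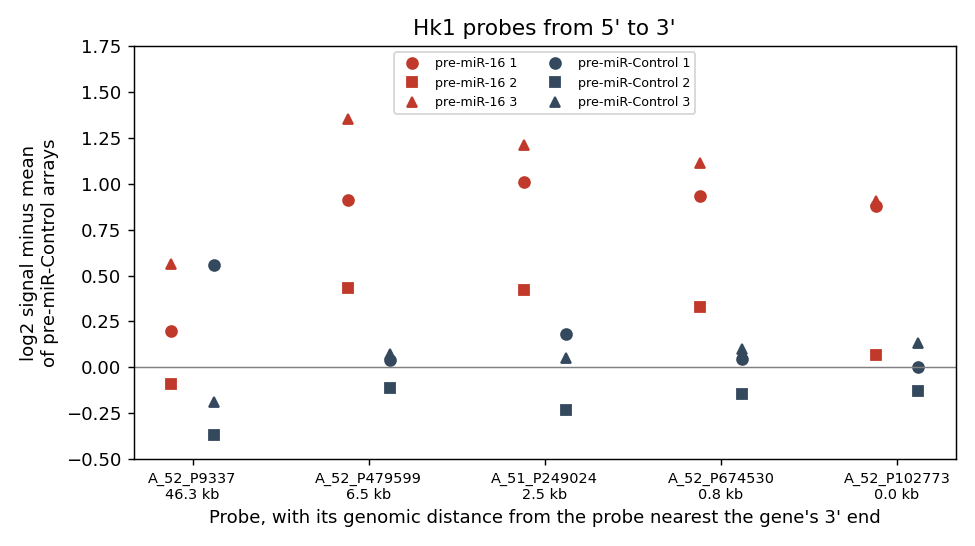
Level of each kept Hk1 probe on every array as log2 signal minus the mean of the 3 pre-miR-Control arrays for that probe, with probes ordered 5′ to 3′ along the gene and labelled with the genomic distance in kb from the 3′-most probe; pre-miR-16 arrays are red and pre-miR-Control arrays blue. Pre-miR-16 replicates 1 and 3 stand above replicate 2 at the 4 probes nearest the 3′ end, and replicate 2 reaches the pre-miR-Control range only at the last of these.

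Pfkp encodes the platelet-type subunit of phosphofructokinase, which commits sugar phosphate to glycolysis. Its brightest probe, A_51_P378856, spans 2155 bases of the genome (chr13:6475782-6477936, minus strand of mm7) and measured 1.26, 1.23 and 1.20 in pre-miR-16 replicates, against 0.74, 0.55 and 0.35 in pre-miR-Control replicates. The groups did not overlap, and the difference of 0.68 ± 0.12 (95% interval 0.39 to 0.98, 1.61-fold, adjusted p = 0.00584) was found within both slides, 0.52 in slide 1 and 0.78 in slide 2. The other 2 Pfkp probes did not give the same call, and their first 30 bases are given because the gene's direction depends on which sequence is read.
Pfkp A_51_P378856: caaactgaaggggtcccagggcacagggaa
Pfkp A_52_P223083: cgaaagatccaaggcaaacaaaacatccaa
Pfkp A_52_P572045: cttcatggtctcagaatttccttcagagtt

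A_52_P223083 (chr13:6482360-6482419) is assigned in the files to the cDNA BC050264, while the brightest probe is assigned to the RefSeq transcript NM_019703. It measured -2.0, -2.09 and -2.27 in pre-miR-16 replicates and -1.65, -1.75 and -1.87 in pre-miR-Control replicates. Here all pre-miR-16 arrays lay below all pre-miR-Control arrays, the opposite of the brightest probe, with a difference of -0.36 ± 0.11 and an adjusted p of 0.0415. On spike-in scaling the difference was 0.04, and the call was lost whichever single array was left out (-0.42 to -0.29). A_52_P572045 (chr13:6473188-6473247) was dim, measured -3.86, -4.21 and -4.33 in pre-miR-16 replicates against -4.32, -4.30 and -4.40 in pre-miR-Control replicates, and was not called (0.21 ± 0.14, 95% interval -0.13 to 0.55, adjusted p = 0.261). On spike-in scaling A_52_P572045 was called higher (0.61, adjusted p = 0.0275). With the 3 probes averaged, the Pfkp difference was 0.18 and no longer passed (adjusted p = 0.236), so the rise is a statement about the brightest probe.

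Pfkfb3 makes fructose-2,6-bisphosphate, the allosteric activator of phosphofructokinase, and is itself a known HIF target. A_51_P212491 (chr2:11411110-11411169, minus strand) measured 0.98, 1.61 and 1.07 in pre-miR-16 replicates, against 1.51, 1.42 and 1.09 in pre-miR-Control replicates. The groups overlapped throughout, and the difference was -0.12 ± 0.20 (95% interval -0.61 to 0.37, adjusted p = 0.655), with -0.52 within slide 1 and 0.35 within slide 2. Its other 2 probes were each well above background on 0 pre-miR-16 arrays and 1 pre-miR-Control array and gave no usable level.

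Aldoa splits the sugar bisphosphate into the triose phosphates that feed the later steps of glycolysis. A_52_P98387 (chr7:122891843-122891902, minus strand), the probe with the seed complement, measured 8.59, 8.47 and 8.64 in pre-miR-16 replicates and 8.87, 8.91 and 8.67 in pre-miR-Control replicates. A_51_P216905, the probe without it, measured 8.15, 8.06 and 8.19 in pre-miR-16 replicates and 8.50, 8.42 and 8.21 in pre-miR-Control replicates. At both probes the pre-miR-16 arrays lay just below the pre-miR-Control arrays, and the differences were the same to 2 decimals, -0.25 ± 0.11 at each. The stretches of the 2 probes shown above share their letters apart from a repeated TGC. The probes are therefore not independent readings, and their likeness says nothing about the seed complement. Neither passed, with adjusted p-values of 0.103 and 0.115 and upper interval ends of 0.01 and 0.02. On spike-in scaling the difference was 0.16 at both.

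Pgk1 catalyses the first step of glycolysis that yields ATP. A_51_P182828, which the array carries in 10 spots, measured 6.69, 6.39 and 6.54 in pre-miR-16 replicates and 6.52, 6.57 and 6.30 in pre-miR-Control replicates (chrX:101530787-101530846, plus strand). The groups overlapped, and the difference was 0.08 ± 0.12 (95% interval -0.22 to 0.38, adjusted p = 0.626). The second probe lies 22 bases further towards the 3′ end and overlaps the first, and it gave 0.11 ± 0.12 (adjusted p = 0.498). The interval at the first probe ran from 0.858-fold to 1.30-fold.

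Ldha turns pyruvate into lactate and regenerates NAD+ for glycolysis. A_51_P364140 (chr7:43031720-43031779, plus strand) measured 6.81, 6.24 and 6.80 in pre-miR-16 replicates, against 6.75, 7.0 and 6.63 in pre-miR-Control replicates. Pre-miR-16 replicate 2 was the lowest of the 6 arrays and the other two of its group lay inside the pre-miR-Control range. The difference was -0.17 ± 0.19 (95% interval -0.63 to 0.29, adjusted p = 0.496), and 0.02 without that array. A_51_P364146, whose coordinates span 930 bases of the genome, gave -0.02 ± 0.17 (adjusted p = 0.942). The Ldha, Pgk1 and Aldoa spots were bright enough that the scanner software took them from the scan at low detector gain and scaled them up. The same holds for the brightest Hk1 probe on pre-miR-16 replicates 1 and 3 and on no other array, so its values mix both scans.

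**Figure D4:**
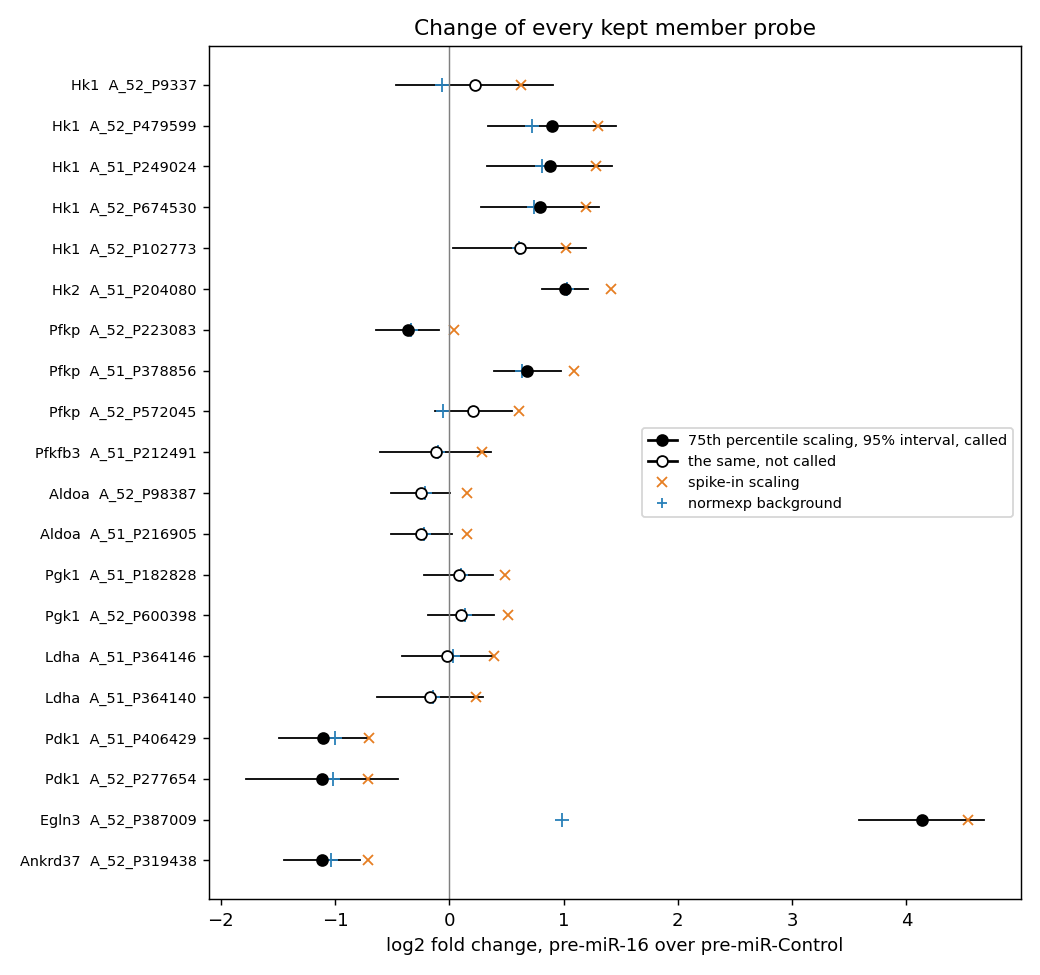
Difference between pre-miR-16 and pre-miR-Control at each of the 20 kept probes of the 10 genes, as log2 fold change with its 95% interval, filled where called, with the values on spike-in scaling (crosses) and with normexp background correction (plus signs). Spike-in scaling moves each probe up by 0.40, and only Egln3 moves far with the background correction, to 0.99.

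Pdk1 phosphorylates and inhibits pyruvate dehydrogenase, which keeps pyruvate out of the mitochondrial cycle, and it was lower after pre-miR-16 at both of its probes. A_51_P406429 (chr2:71745341-71745400, plus strand) measured -0.91, -1.27 and -0.81 in pre-miR-16 replicates, against 0.07, 0.30 and -0.04 in pre-miR-Control replicates. A_52_P277654 (chr2:71747473-71747532), 2132 bases further towards the 3′ end and the brighter of the pair, measured 0.65, -0.23 and 0.64 in pre-miR-16 replicates and 1.58, 1.66 and 1.15 in pre-miR-Control replicates. No pre-miR-16 array reached the pre-miR-Control range at either probe, and replicate 2 was the lowest of its group at both. Expression fell by 1.11 ± 0.16 (SE) at the first probe, with an adjusted p of 0.00281, and by 1.11 ± 0.28 at the second, with an adjusted p of 0.0192. Within slide 1 the differences were -0.98 and -0.94, and within slide 2 they were -1.40 and -1.63. The call at the brighter probe was lost without pre-miR-Control replicate 1 (-1.05, adjusted p = 0.0563) or replicate 2 (-1.01, adjusted p = 0.0676) and on spike-in scaling (-0.71, adjusted p = 0.0983), while the dimmer probe passed under all 19 alternatives that gave it a value.

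Egln3, a prolyl hydroxylase that marks HIF alpha subunits for degradation and that HIF induces in turn, was well above background in pre-miR-16 cultures and not in pre-miR-Control cultures. Its probe A_52_P387009 (chr12:52198570-52198629, minus strand) passed the scanner software's criterion on 3 of 3 pre-miR-16 arrays and on 0 of 3 pre-miR-Control arrays. The processed signals were 64.6, 101 and 71.1 units in pre-miR-16 replicates, against 3.34, 4.09 and 3.84 units in pre-miR-Control replicates, where the scanner software had put in substitute values for signals too dim to measure. The uncorrected mean signals were 115, 155 and 125 units in pre-miR-16 replicates, against 50.02, 53.4 and 52.7 units in pre-miR-Control replicates, and the local background was 43 to 51 units on the 6 arrays. The level in pre-miR-16 cultures was therefore low on the scale of the array (-3.42, -2.74 and -3.57), and that in pre-miR-Control cultures was not measured.

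With each pre-miR-Control array set at its lowest signal of any probe well above background, Egln3 was 4.10-fold higher in pre-miR-16 cultures. A probe that is not well above background can lie above that signal, so this fold is not a strict lower bound. The fit on the substitute values gave 4.13 ± 0.22, with an adjusted p of 4.96e-05, and its size is not a measured fold. With normexp background correction the difference was 0.99 (adjusted p = 0.00165), and 1.11 in the values of the deposited series matrix (adjusted p = 4.33e-04). Both lie below the log2 of the 4.10-fold above, 2.04. Normexp adds an offset of 50 units to every signal, which draws dim signals together, and the normalization of the matrix is not given. The size of the rise therefore depends on how background is treated. Egln3 entered the fit through the pre-miR-16 arrays alone, and the filter that asks for signal on all 6 arrays leaves it out.

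Ankrd37 encodes a small ankyrin repeat protein whose transcript is induced by HIF, and it moved against Egln3. A_52_P319438 (chr8:44774913-44774972, minus strand) measured 0.27, -0.02 and 0.32 in pre-miR-16 replicates, against 1.34, 1.43 and 1.14 in pre-miR-Control replicates. The groups lay clearly apart, and expression fell by 1.11 ± 0.14 (95% interval -1.44 to -0.79, adjusted p = 0.00152). The difference was -1.07 within slide 1 and -1.31 within slide 2, and -0.71 on spike-in scaling, and Ankrd37 passed in all 21 alternatives that gave it a value.

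The replicates did not contribute evenly. At the brightest probes pre-miR-16 replicate 2 was the lowest of its group for 6 of the 10 genes (Hk1, Aldoa, Pgk1, Ldha, Pdk1 and Ankrd37) and the highest for 3 (Hk2, Pfkfb3 and Egln3). In the other group pre-miR-Control replicate 2 was the highest for 7 of the 10 genes and replicate 3 the lowest for 7. The 7 of pre-miR-Control replicate 2 include Egln3, whose values in that group are substitutes, so its order there is not a measured one. Replicate 2 of pre-miR-16 thus lowered the differences of Hk1 and Ldha and enlarged the fall of Pdk1, which was -0.82 at its brighter probe without that array (adjusted p = 0.0139).

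Of the genes whose 6 levels followed those of Egln3 most closely, the nearest was Igfbp3, with a root mean square distance of 0.0742 between centred log2 levels over 6 arrays, followed by H2-Ab1 (0.107) and Srpx (0.111). They differed between the groups by 4.25 ± 0.20, 4.01 ± 0.19 and 3.92 ± 0.21. Since the pre-miR-Control levels of Egln3 are substitute values, these distances and their order describe a match to those values and not to measured levels of Egln3.

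The other genes of the pathway were taken from 9 lists with 123 measured genes, some in more than 1 list, of which 27 were called higher (21.95%) and 20 lower (16.3%), beside 16.5% and 29.7% of all genes. On spike-in scaling 36 were called higher and 2 lower, beside 23.7% and 5.12% of all genes. Slc2a3 and Pdk4 are among the higher genes on both scales and entered the fit through the pre-miR-16 arrays alone, which favours a higher call. Among 19 other glycolytic enzymes, 3 were called higher and 1 lower, 15 were not called, and the median difference was -0.00. The 3 were the hexokinase Hk3 (2.58 ± 0.23, adjusted p = 4.28e-04), Ldhb, the lactate dehydrogenase subunit that Ldha pairs with (2.94 ± 0.47, adjusted p = 0.00394), and the inositol polyphosphate phosphatase Minpp1 (0.60 ± 0.20, adjusted p = 0.0491). Hk3 was dim in pre-miR-Control cultures, with a mean level of -4.29, though well above background on all 3 arrays. The muscle enolase Eno3 was lower (-0.72 ± 0.10, adjusted p = 0.00217). Bpgm, which makes the bisphosphoglycerate of red cells, gave -0.00 ± 0.10 and did not pass. On spike-in scaling 7 of these 19 enzymes were called higher and 0 lower, and without pre-miR-16 replicate 2 the number lower was 2.

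Of 13 glucose and lactate transporters, 6 were called higher and 1 lower, beside 16.5% and 29.7% of all genes, and the median was 0.55. Emb, a chaperone of lactate transporters, differed by 3.99 ± 0.20, the glucose transporter Slc2a10 by 2.71 ± 0.23 and the lactate exporter Slc16a3 by 2.87 ± 0.35. Emb and Slc2a10 were dim in pre-miR-Control cultures, with mean levels of -4.03 and -3.78, though well above background on all 3 arrays. The glucose transporter Slc2a3 was not well above background in pre-miR-Control cultures (0 of 3 arrays). With those arrays set at their lowest signal well above background, Slc2a3 was 5.34-fold higher, which is not a strict lower bound. It is 1 of the 6 called higher and entered the fit through the pre-miR-16 arrays alone, which favours a higher call. Bsg, the partner of Slc16a3 at the membrane, gave -0.07 ± 0.12 and the fructose transporter Slc2a5 gave -0.17 ± 0.44, and neither passed. Without pre-miR-16 replicate 2, 2 of the 13 were called lower.

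Of 10 enzymes and regulators around Pfkfb3, 2 were higher and 2 lower, beside 16.5% and 29.7% of all genes. Txnip, which restrains glucose uptake, was higher by 1.77 ± 0.20 and Pfkfb4, the sister enzyme of Pfkfb3, by 0.70 ± 0.11. Tigar, a phosphatase of the same bisphosphate, was lower (-0.46 ± 0.09), as was Prkaa1, a catalytic subunit of the energy sensor AMPK (-0.37 ± 0.09). Pfkfb2 (-0.15 ± 0.21) and Myc (0.15 ± 0.35) did not pass. Only 1 of the 10 was called lower without pre-miR-16 replicate 1 or without pre-miR-Control replicate 1 or 3, and 0 were on spike-in scaling, where Tigar gave -0.05 and Prkaa1 0.03.

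Around Pdk1, 1 of 12 genes of pyruvate entry into the mitochondrion was higher and 2 were lower, beside 16.5% and 29.7% of all genes. The higher one was its relative Pdk4, which was not well above background in pre-miR-Control cultures (0 of 3 arrays). With those arrays set at their lowest signal well above background, Pdk4 was 3.21-fold higher, which is not a strict lower bound. It entered the fit through the pre-miR-16 arrays alone, which favours a higher call. Pdk3 (-0.47 ± 0.14) and Dlat, a pyruvate dehydrogenase subunit (-0.33 ± 0.11), were lower with adjusted p-values of 0.0379 and 0.0449, and Dlat or Pdk3 or both lost the call with any single array left out. On spike-in scaling neither was called, with -0.07 for Pdk3 and 0.07 for Dlat. Pdk2 (-0.07 ± 0.14) and Pdhb (0.02 ± 0.12) did not pass. Among 18 tricarboxylic acid cycle enzymes 4 were lower and 0 higher, beside 29.7% and 16.5% of all genes. Idh2 was lowest (-1.07 ± 0.19), followed by Suclg2 (-0.47 ± 0.10), Sucla2 (-0.37 ± 0.09) and Sdhb (-0.32 ± 0.10), while Dlst (0.01 ± 0.09) did not pass. Without pre-miR-16 replicate 3, or without pre-miR-Control replicate 2 or 3, 2 of the 18 were called lower, and on spike-in scaling only Idh2 of these 4 remained lower (-0.67, adjusted p = 0.0413) and 3 others were called higher. These 3, named after their values were seen, were Ogdh (0.61, adjusted p = 0.0398), Sdha (0.58, adjusted p = 0.0476) and Idh3b (0.56, adjusted p = 0.0483).

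The HIF subunit transcripts themselves did not pass. Hif1a, the oxygen-regulated subunit, measured 2.30, 2.41 and 2.50 in pre-miR-16 replicates against 2.53, 2.48 and 2.31 in pre-miR-Control replicates (-0.04 ± 0.11, adjusted p = 0.794), and its partner Arnt gave -0.09 ± 0.17. Epas1 and Arnt2 did not pass the filter on dim signals. Among 13 genes of this list, 1 was called higher and 3 lower, beside 16.5% and 29.7% of all genes. Siah2, a ubiquitin ligase for Egln enzymes, was higher (0.59 ± 0.10). Siah1a (-0.77 ± 0.13), the HIF antagonist Cited2 (-0.58 ± 0.10) and the coactivator Crebbp (-0.36 ± 0.09) were lower, and none of these 3 was called on spike-in scaling.

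The 31 other known HIF targets had 14 called higher and 5 lower, beside 16.5% and 29.7% of all genes. Their median difference was 0.00. Among those with the smallest p-values were the lipoprotein receptor Vldlr (3.79 ± 0.09), the collagen-crosslinking Lox (4.32 ± 0.20) and the lipase inhibitor Angptl4 (3.14 ± 0.19), all higher. Ndrg1 (-0.03 ± 0.22) and Kdm4b (0.00 ± 0.10) did not pass. Without pre-miR-16 replicate 1 or 3, or without pre-miR-Control replicate 1 or 2, 3 of these genes were called lower in place of 5, and on spike-in scaling 15 were called higher and 0 lower. Of 5 measured gluconeogenic enzymes, Pck2 was higher (1.30 ± 0.13) and Fbp2 (-1.85 ± 0.41) and G6pc3 (-0.43 ± 0.10) were lower, with 1 gene of the list lower without pre-miR-16 replicate 1 or without pre-miR-Control replicate 1, and on spike-in scaling G6pc3 gave -0.02 (adjusted p = 0.938). Of 7 pentose phosphate enzymes, H6pd (1.34 ± 0.32) and Pgd (0.37 ± 0.11) were higher, and 0 of the 7 were called without pre-miR-16 replicate 1 or 3 or without pre-miR-Control replicate 2 or 3.

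**Figure D5:**
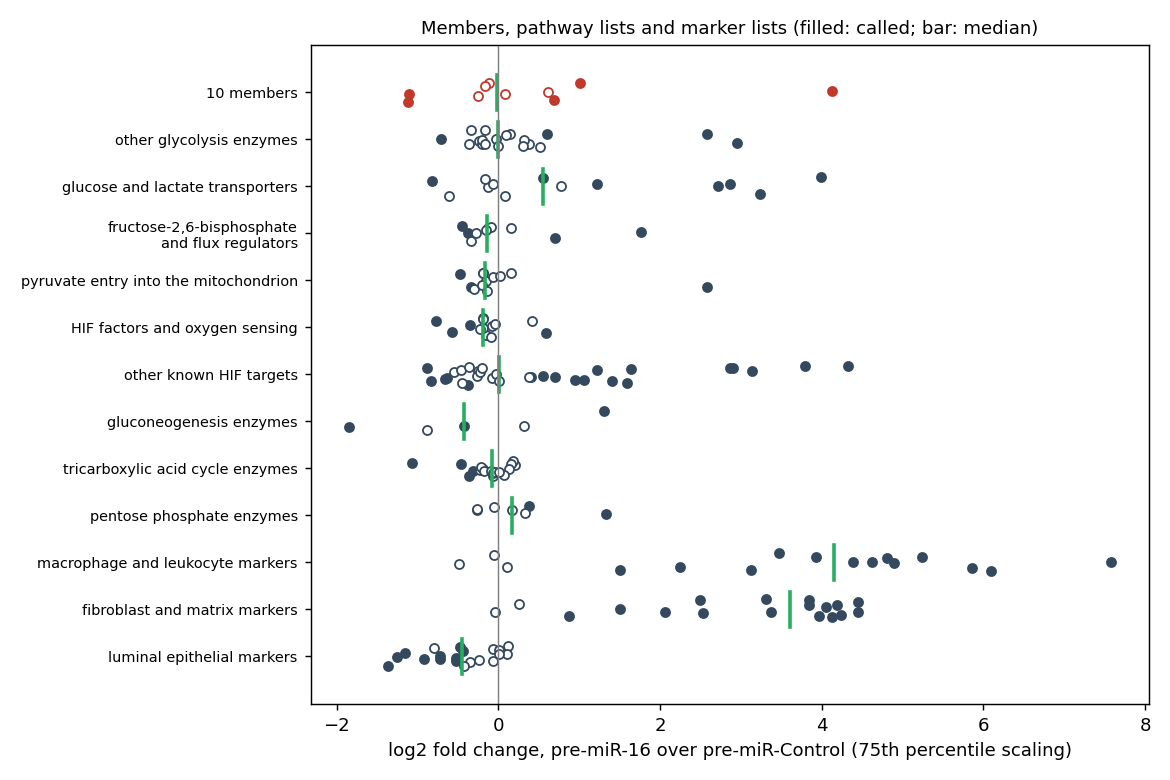
Log2 difference between pre-miR-16 and pre-miR-Control for the 10 genes (red), the 9 pathway lists and 3 marker lists (blue), 1 point per gene at its brightest kept probe, filled where called, with a green bar at the median of each list. The 10 genes spread on both sides of 0 around a median of -0.02, while the medians of the macrophage and fibroblast markers lie at 4.16 and 3.61. The macrophage median rests on genes not well above background on pre-miR-Control arrays, so its size is not a measured one.

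Markers of other cell types moved with the groups. Of 16 measured macrophage and leukocyte markers, 13 were called higher in pre-miR-16 cultures and 0 lower, beside 16.5% and 29.7% of all genes. Of the 13, 4 (Lyz2, Cd68, C1qb and Cd14, named after their values were seen) were well above background on all 6 arrays and the other 9 lacked that on 1 or more pre-miR-Control arrays. These 9 entered the fit through the pre-miR-16 arrays alone, which favours a higher call, so the count of 13 is not support for a rise. The summed level of the list, relative to the 75th percentile of the array, was 234 to 288 in pre-miR-16 cultures against 19.7 to 25.8 in pre-miR-Control cultures. The lysozyme Lyz2 made up 77.7% to 84.2% of that sum in pre-miR-16 cultures and 20.8% to 37.99% in pre-miR-Control cultures, and without it the sums were 45.4 to 56.0 in pre-miR-16 cultures and 14.8 to 16.4 in pre-miR-Control cultures. Lyz2 differed by 4.89 ± 0.34. The macrophage receptor Adgre1 stood well above background in 3 of 3 pre-miR-16 cultures and in 2 of 3 pre-miR-Control cultures, so the size of its difference is not given, and Ptprc, Laptm5 and Mrc1 did not rise well above background in pre-miR-Control cultures (0 of 3 arrays each). Csf1r, Aif1 and Cd3e did not pass. Of 18 fibroblast and matrix markers, 16 were called higher and 0 lower, beside 16.5% and 29.7% of all genes. Of the 16, 14 were well above background on all 6 arrays and 2 (Fap and Lum) entered the fit through the pre-miR-16 arrays alone. The summed level of this list was 788 to 1007 in pre-miR-16 cultures and 448 to 526 in pre-miR-Control cultures. Dcn, which gave -0.04 ± 0.13, made up 43.2% to 49.6% of that sum in pre-miR-16 cultures and 88.2% to 89.4% in pre-miR-Control cultures, and without it the sums were 425 to 572 in pre-miR-16 cultures and 51.5 to 58.2 in pre-miR-Control cultures. Of 20 luminal epithelial markers, 10 were lower and 0 higher (Krt8 -1.16 ± 0.11, Krt18 -0.92 ± 0.11), beside 29.7% and 16.5% of all genes. Their summed levels were 869 to 1052 in pre-miR-16 cultures and 1396 to 1551 in pre-miR-Control cultures. The other 10 luminal markers were not called, among them Krt7 (0.01 ± 0.33) and Erbb2 (0.01 ± 0.17). On spike-in scaling 3 luminal markers were lower, beside 5.12% of all genes. The luminal markers Krt8, Krt18, Epcam and Cdh1 were measured well above background throughout. Of 7 endothelial markers, Esam alone was measured, and it did not pass.

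These shifts run alongside the rise of Hk2, Egln3, Hk3, Emb and Slc16a3, and of Pfkp at its brightest probe. They also run alongside the fall of Pdk1 and Ankrd37, and their part in all these results was not tested.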

How the data were processed

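The series holds 6 single-colour Agilent mouse arrays, 3 per group, and groups come from the sample titles. Per the file headers, the spot intensity values that the authors deposited come from Agilent Feature Extraction 9.5.3.1, which subtracted background, removed trends within the array and put in substitutes for dim spots. They are not normalized between arrays. A deposited matrix of log2 values, of a normalization not given in the sources used here, served as an alternative. Its columns for pre-miR-16 replicates 1 and 2 had Spearman correlations of 0.946 and 0.944 with their own scanner file and of 0.965 and 0.970 with each other's, so which culture bears which of these 2 numbers is in doubt, and replicate numbers here are those of the scanner files.

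Control spots and the 74 to 113 outlier spots per array were left out, spots of a probe were averaged as log2, and the 75th percentile of the array was subtracted. Probes entered the fit where, on all 3 arrays of either group, a share of 0.5 or more of their spots rose well above background. Groups were compared over all 23828 kept probes with lmFit and eBayes (limma 3.58.1, R 4.3.3), with Benjamini-Hochberg adjustment and a threshold of 0.05. With 3 arrays per group an exact permutation test cannot give a p below 0.10. The p-values weigh the groups against the spread between these cultures. The code was tested on simulated data.

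All probes of the 10 genes are reported. From each list the text names up to 4 called genes with the smallest p and up to 2 kept genes with the largest. A few genes chosen in this way are left unreported here. The 10 genes and the lists were chosen with earlier results of these data known. Genes were named through RefSeq accessions (22951 probes), then synonyms (3109 probes), then the files' own names. Probe coordinates are those of the files (mm7), which give no exon or UTR annotation, and promoter windows and the microRNA come from RefSeq tables of GRCm38.p6. Alternatives were spike-in scaling, median centring, quantile normalization, normexp (offset 50), the deposited matrix, other filters and probe rules, a moderated trend, replicate or slide blocks, a threshold of 0.01, and each array left out.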

Additional observations from a re-analysis of the deposited data

How the results depend on the processing

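Of the 23828 probes, 10631 were called, 6707 on spike-in scaling and 5894 at an adjusted p under 0.01, and 7100 to 12111 with 1 array left out. The share of calls that were higher was 35.5%, and 82.7% on spike-in scaling. Among the 10 genes 5 were called, with 4 to 6 over the 22 alternatives, and 4 to 6 with 1 array left out. Hk2 and Ankrd37 were called in all 21 alternatives that gave them a value. Spike-in scaling turned the sign of Pfkp A_52_P223083 (0.041), Pfkfb3 A_51_P212491 (0.29), Aldoa A_52_P98387 (0.16) and A_51_P216905 (0.16), and Ldha A_51_P364146 (0.39) and A_51_P364140 (0.23), since it moves every value up by 0.40. Ldha A_51_P364146, at -0.02, also turned with quantile normalization (0.044), with normexp before the 75th percentile (0.029) or before quantile normalization (0.078), without pre-miR-16 replicate 2 (0.097) and without pre-miR-Control replicate 1 (0.039) or 2 (0.062), with a range of -0.15 to 0.097 over the arrays left out. Ldha A_51_P364140 turned without pre-miR-16 replicate 2 (range -0.27 to 0.018) and Pgk1 A_51_P182828 without pre-miR-Control replicate 3 (range -0.0027 to 0.15). Hk1 A_52_P9337 turned with normexp (-0.060) and with the slide as a fixed block (-0.047), and Pfkp A_52_P572045 with normexp (-0.056). Each of these was uncalled, apart from Pfkp A_52_P223083, and the cause was not tested beyond the spike-in shift. Hk1 at its brightest probe passed with 6 alternatives: both quantile settings, spike-in scaling, the series matrix, the mean of its probes and without pre-miR-16 replicate 2. Deviations of samples with the same replicate number correlated at -0.087, -0.042 and -0.0023. These values cannot settle whether the numbers pair the samples. Each group has few arrays, and the numbers of pre-miR-16 replicates 1 and 2 are in doubt. With the replicate block 8272 probes and 5 of the 10 genes were called, and among the probes of the 10 genes the call of Pfkp A_52_P223083 was lost. The filter that asks for signal on all 6 arrays leaves Egln3 out. Signal over background limits Egln3, Slc2a3, Pdk4 and the 5′ probes of Hk1 and Pfkfb3.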
